A study of Mus musculus with 2 samples.

Results

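The 34 genes described here form a named list of type I interferon-stimulated genes, taken by gene name, with no threshold on a measured value. Of these 34, 32 were listed in both deposited gene lists, among 22483 genes that both lists hold, and Mx1 and Mx2 were not analysed here. They were read as raw counts of unique molecular identifiers (UMIs, 1 per captured RNA molecule) in single immune cells from mouse tumours, in 9 cell types of 2 libraries.

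Type I interferons bind a receptor of the subunits Ifnar1 and Ifnar2, whose kinases Jak1 and Tyk2 activate signalling proteins such as Stat2. Stat2 acts with Irf9 in a transcription factor complex that binds the interferon-stimulated response element in promoters of genes such as Isg15 and the Ifit family. The induced proteins block steps of viral replication, sense foreign nucleic acid, or feed back on the pathway, as Irf7 does by driving more interferon and Usp18 by damping the receptor. In tumours the same programme is seen in T cells, B cells and myeloid cells, with dendritic cells among the known sources of the ligands.

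The cells came from MC38 tumours, a mouse colon carcinoma line grown under the skin of C57BL/6 mice, which the labels give as wild type. One group is named control and the other PBM, photobiomodulation, a treatment with light given every day from day 7 after implantation; tumours of both groups were taken on day 14. CD45-positive cells were sorted and pooled within each group before a 10x Genomics 3′ library was made, so each group is 1 library, the number of animals in a pool is not given in the sources used here, and the age of the animals and the treatment of the control animals are not stated there either. The labels call the cell type tumour cells, whereas nearly all cells carried immune markers, apart from a Sparc-led cluster of 1209 control and 7 PBM cells that enters none of the types. The control library held 11238 barcodes with 104673228 UMIs and the PBM library 13962 barcodes with 86159897 UMIs; after filters and removal of doublets 11099 and 13062 cells were used. The libraries share 1991 barcode names, which are running cell numbers. With 1 library a group no test of the treatment is possible: cells are not replicates, all intervals below are 95% intervals that cover counting error only, and treatment, pool of animals and library cannot be told apart.

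T cell types were gated inside T-like clusters by UMIs of a few genes. CD8 T cells had a UMI of Cd8a or Cd8b1 and none of Cd4 or Foxp3; the naive gate asked for Ccr7 or Lef1 without Pdcd1, and the Pdcd1-positive gate for Pdcd1. CD4 T cells had Cd4 without Cd8a, Cd8b1 or Foxp3, and Foxp3-positive T cells had Foxp3 without Cd8a or Cd8b1. The other types are whole clusters, made without the interferon genes and named from markers. A type was compared where each library held at least 30 of its cells. This left 182 control and 3093 PBM naive-gate CD8 T cells, 576 and 42 Pdcd1-positive CD8 T cells, 310 and 964 CD4 T cells, and 408 and 244 Foxp3-positive T cells. It also left 1324 and 202 NK-like, 205 and 5605 B-like, 910 and 83 monocyte-like, and 4192 and 89 macrophage-like cells. The monocyte-like cluster was led by Ace, Adgre4 and Treml4. A cluster of 325 and 100 cells led by Cd209a, a gene of conventional dendritic cells, also held Siglech, a marker of plasmacytoid dendritic cells, at 174 and 888 UMIs per 1000000, and was left without a cell type name. Dendritic-like cells, led by Ccl22 and Fscn1, numbered 155 and 4 and were not compared.

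The 32 genes lie on 13 chromosomes, in part as neighbours: Ifit1, Ifit2, Ifit3 and Ifit3b on chromosome 19, Oas1a, Oas2, Oas3, Oasl1 and Oasl2 on chromosome 5, and Rtp4, Parp9, Parp14 and Dtx3l on chromosome 16. Promoter windows from RefSeq (GRCm38.p6, 250 bases before to 50 after the start) were at hand for 24 of the 32. They were searched on both strands for GAAANNGAAA, the core of an interferon-stimulated response element, which reads TTTCNNTTTC on the other strand; matches may overlap. Of these 24 genes 13 held a match, against 3.99% of all 27025 gene symbols with windows of this length (3.44% of the 32851 windows themselves). A match is a description of the letters and not a site shown to be bound. The 200 bases before the start are printed for 7 genes, 5′ to 3′ on the gene's own strand, in lower case with matches in capitals. Isg15, Ifit1, Ifit3, Rsad2 and Oas3 are shown as examples with a match there, and not for the size of their part in the results. Ifi27l2a, the largest piece of the difference below, had no window at hand. Irf7 and Isg20 are shown because neither holds the motif. Irf7 was higher in the PBM library in 9 of 9 types, and Isg20, shown with the first of its 3 windows, was lower in 6 of 9.
Isg15, chr4:156200819-156201018, minus strand: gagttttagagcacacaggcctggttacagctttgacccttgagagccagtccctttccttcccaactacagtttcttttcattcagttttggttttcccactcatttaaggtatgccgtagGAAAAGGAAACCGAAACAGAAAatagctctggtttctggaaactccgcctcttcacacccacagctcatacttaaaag
Ifit1, chr19:34640689-34640888, plus strand: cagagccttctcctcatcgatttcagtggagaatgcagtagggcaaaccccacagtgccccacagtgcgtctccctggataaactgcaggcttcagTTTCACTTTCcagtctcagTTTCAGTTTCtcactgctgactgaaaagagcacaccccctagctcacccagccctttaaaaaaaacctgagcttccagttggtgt
Ifit3, chr19:34583329-34583528, plus strand: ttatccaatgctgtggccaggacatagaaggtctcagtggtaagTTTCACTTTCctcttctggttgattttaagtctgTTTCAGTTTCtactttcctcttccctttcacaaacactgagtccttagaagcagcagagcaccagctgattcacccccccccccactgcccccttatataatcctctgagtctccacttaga
Rsad2, chr12:26456453-26456652, minus strand: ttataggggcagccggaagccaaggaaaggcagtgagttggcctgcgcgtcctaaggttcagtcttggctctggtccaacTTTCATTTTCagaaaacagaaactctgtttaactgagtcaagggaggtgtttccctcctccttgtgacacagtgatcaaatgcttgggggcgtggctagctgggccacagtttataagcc
Oas3, chr5:120777660-120777859, minus strand: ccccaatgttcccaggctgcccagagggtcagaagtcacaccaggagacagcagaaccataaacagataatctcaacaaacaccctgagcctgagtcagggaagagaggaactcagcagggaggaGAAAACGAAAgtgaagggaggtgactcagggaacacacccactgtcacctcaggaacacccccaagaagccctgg
Irf7, chr7:141266425-141266624, minus strand: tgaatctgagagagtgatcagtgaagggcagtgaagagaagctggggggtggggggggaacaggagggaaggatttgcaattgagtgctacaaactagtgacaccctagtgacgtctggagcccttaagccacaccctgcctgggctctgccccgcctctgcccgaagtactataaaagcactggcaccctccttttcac
Isg20, chr7:78913224-78913423, plus strand: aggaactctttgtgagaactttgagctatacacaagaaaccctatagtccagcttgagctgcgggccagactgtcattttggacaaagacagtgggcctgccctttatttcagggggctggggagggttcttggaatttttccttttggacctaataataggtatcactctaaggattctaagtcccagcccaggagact

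Counted from the start of the gene, the match nearest to it begins at base -66 in Isg15, -85 in Ifit1, -122 in Ifit3, -120 in Rsad2 and -75 in Oas3. Isg15 holds 3 overlapping matches, at -78, -72 and -66, and Ifit1 and Ifit3 hold 2 each. Ifit3b, Oas1a, Bst2, Ddx58, Ifih1, Trim30a, Slfn5 and Stat2 held a match as well, in Ddx58 and Ifih1 only downstream of the start. Ifit2, Oasl1, Oasl2, Irf7, Ifi44, Cmpk2, Xaf1, Isg20, Ifi35, Dtx3l and Irf9 held none in their windows. The PBM to control ratios of genes with and without a match overlapped: the median over types had a middle value of 0.89 on the log2 scale among the 13 with a match (0.12 to 2.13) and 0.95 among the 11 without (-0.25 to 3.45).

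The summed level of the 32 genes, as UMIs per 1000000 UMIs of a cell type (CPM), was higher in the PBM library in 9 of 9 cell types. Pdcd1-positive CD8 T cells differed most, at 867 CPM in control and 3217 CPM in PBM, a log2 ratio of 1.89 (1.80 to 1.98), or 3.71-fold. These cells lay in different clusters in the libraries, and their ratio could not be read inside a single cluster. Macrophage-like cells went from 1198 to 2891 CPM (log2 1.27, 1.17 to 1.37), B-like cells from 1054 to 2497 CPM (1.24, 1.13 to 1.36) and naive-gate CD8 T cells from 1132 to 2421 CPM (1.10, 1.02 to 1.18). All of these lie at or above 2-fold. The macrophage-like cells of the libraries were not alike. Summed over macrophage marker genes, the control ones reached 12994 CPM but the PBM ones only 6140. For B cell marker genes the same sums were 19.5 and 999. The part of this mismatch in the macrophage-like ratio was not tested, apart from the subtraction of free RNA given below. NK-like cells stood at 704 and 1301 CPM (log2 0.89, 0.80 to 0.97) and the Cd209a-led cluster at 2845 and 5154 CPM (0.86, 0.79 to 0.92). Foxp3-positive T cells stood at 3297 and 5288 CPM (0.68, 0.63 to 0.73), and monocyte-like cells at 3819.6 and 5827 CPM (0.61, 0.53 to 0.68). CD4 T cells had the smallest ratio, 0.47 (0.42 to 0.53), from 2281 to 3164 CPM. Inside a single cluster of 22 control and 794 PBM cells theirs was -0.12, from 262 control UMIs and without an interval. Inside another, of 235 and 160 cells, it was 1.36. No interval of the ratios of the 9 whole types reached 0, and no spread between animals stands behind any of these values.

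**Figure D1:**
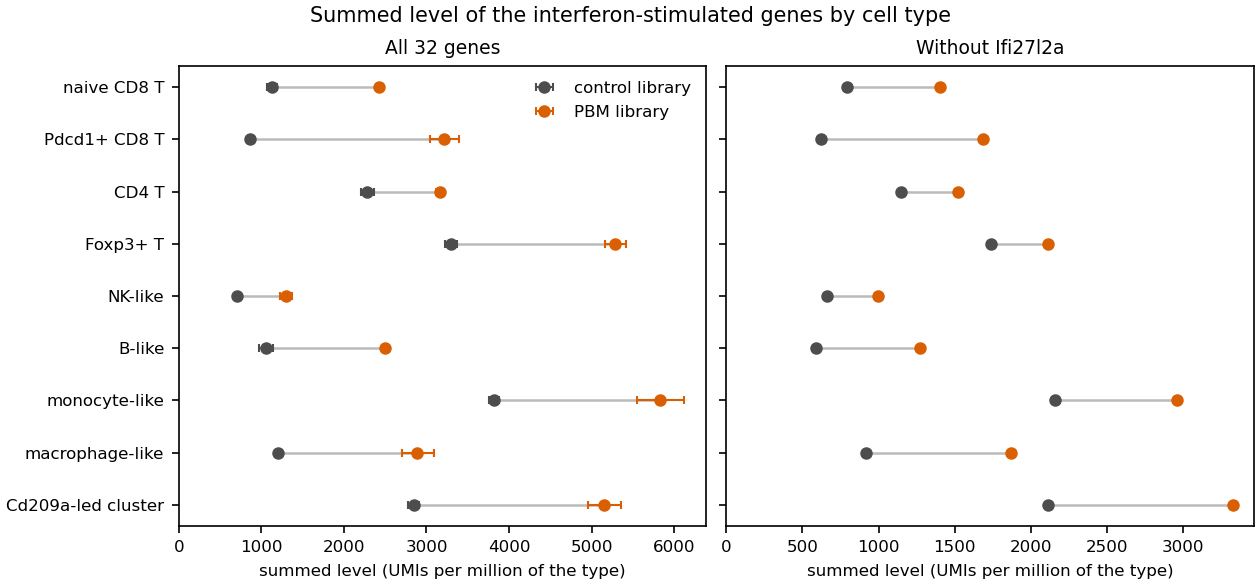
Summed level of the interferon-stimulated genes (x axis, UMIs per 1000000 UMIs of the cell type) in each cell type (y axis), control in dark grey and PBM in orange, 1 library each; the left panel sums all 32 genes, with exact Poisson 95% bars, and the right panel leaves out Ifi27l2a. The PBM point lies to the right of the control point in every row of both panels, from 867 to 3217 in Pdcd1-positive CD8 T cells and from 2281 to 3164 in CD4 T cells.

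The order of the cell types was partly shared by the libraries. Monocyte-like cells had the highest summed level and NK-like cells the lowest in both. In the control library the order ran from monocyte-like cells through Foxp3-positive T cells, the Cd209a-led cluster, CD4 T cells, dendritic-like cells (1365 CPM), macrophage-like cells, naive-gate CD8 T cells, B-like cells and Pdcd1-positive CD8 T cells to NK-like cells. Macrophage-like and naive-gate CD8 T cells, and naive-gate CD8 T and B-like cells, had overlapping intervals there. In the PBM library Foxp3-positive T cells and the Cd209a-led cluster followed monocyte-like cells with overlapping intervals, and Pdcd1-positive CD8 T cells stood next, with an interval that overlaps that of CD4 T cells. Pdcd1-positive CD8 T cells were at place 9 of 10 in control and at place 4 of 10 in PBM. Macrophage-like, B-like, naive-gate CD8 T and dendritic-like cells (1835 CPM, 1348 to 2440.1, from 4 cells) came before NK-like cells, and the interval of the dendritic-like cells overlaps both of its neighbours.

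Most genes of the list differed in the same direction as the sum. Of 266 values (a gene in a cell type with at least 20 UMIs over both libraries), 224 were higher in PBM and 42 lower; 114 were at least 2-fold higher and 3 at least 2-fold lower. Other scalings move all genes of a type together, by -0.11 to 0.20 with TMM factors and -0.04 to 0.27 with totals free of ribosomal protein and mitochondrial genes, so values near 0 change sign: 234 values were higher with the first and 237 with the second, and 127 and 130 at least 2-fold higher. The values that turned lay in CD4 T, Foxp3-positive T, CD8 T, NK-like, monocyte-like and macrophage-like cells; among them were Rsad2, Oas3, Ifit2, Ifih1, Parp14 and Dtx3l in CD4 T cells, Stat2 in both CD8 gates and Isg20 in naive-gate CD8 T cells, which became higher, and, with TMM, Isg15 in NK-like cells, which became lower. The counting intervals of the levels lay apart for 135 of the higher values and for 5 of the lower ones. In Pdcd1-positive CD8 T cells 19 of 27 genes were at least 2-fold higher, against 7.79% of all genes read the same way, and 0 at least 2-fold lower, against 16.1% of all. In B-like cells 18 of 30 were 2-fold higher (all genes 5.21%) and 0 lower (13.3%), and in naive-gate CD8 T cells 16 of 31 (6.25%) and 0 (13.8%). Macrophage-like cells had 15 of 31 2-fold higher, where the background was larger at 14.5%, and 0 lower (11.1%). Each of these shares is several times that of all genes. In Foxp3-positive T cells 13 of 29 were 2-fold higher (all genes 5.45%) and 1 lower (14.3%), in CD4 T cells 11 of 31 (7.47%) and 0 (13.2%), and in NK-like cells 11 of 28 (7.48%) and 1 (9.83%). The monocyte-like cells had 6 of 30 2-fold higher (7.35%) and 0 lower (11.8%). The Cd209a-led cluster had 5 of 29 (10.8%) and 1 (11.4%), the count nearest to its background. Median log2 ratios of the counted genes were 1.03 in naive-gate CD8 T cells, where all genes had -0.18, 1.40 in Pdcd1-positive CD8 T cells (all genes -0.13), 0.54 in CD4 T cells (-0.14) and 0.94 in Foxp3-positive T cells (-0.17). They were 0.71 in NK-like cells (all genes 0.08), 1.37 in B-like cells (-0.18), 0.39 in monocyte-like cells (-0.10), 0.97 in macrophage-like cells (0.02) and 0.30 in the Cd209a-led cluster (0.06). The list's median lay above that of all genes in 9 of 9 types. With each cell thinned to 1000 UMIs fewer genes reach 20 UMIs, and the number at least 2-fold higher was 9 in naive-gate CD8, 7 in Pdcd1-positive CD8, 7 in CD4 and 5 in Foxp3-positive T cells, 4 in NK-like cells and 2 in the Cd209a-led cluster. At least 2-fold lower were 3 in the Cd209a-led cluster, more than were higher there, 1 in CD4 T and 1 in monocyte-like cells. The share of all genes at this depth is not given, so these numbers have no background beside them.

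The T cell gates selected cells of different clusters in the libraries. Of the 182 control cells in the naive CD8 gate 145 lay in a cluster led by Ifng, Pdcd1 and Cxcr6, whereas 2649 of the 3093 PBM cells lay in a cluster led by Dapl1, a gene of naive CD8 T cells. The control cells of this gate held Gzmb, the gene of granzyme B, at 327 CPM against 4.704 in PBM, and Ifng at 105 against 1.29, so for control the gate's name goes against the data. Tcf7, which naive T cells express, stood at 228 and 430.1 CPM. Of the Pdcd1-positive CD8 T cells 567 of 576 control cells lay in the Ifng-led cluster, and the 42 PBM cells lay mostly in the Dapl1-led cluster (27) with 8 in the Ifng-led one. CD4 T cells lay mostly in an Izumo1r-led cluster in control (235 of 310) and in a Gm12840-led, Lef1-rich cluster in PBM (794 of 964), and Foxp3-positive T cells in the Foxp3-led cluster in control (395 of 408) and the Izumo1r-led one in PBM (162 of 244).

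Read inside single clusters, the summed level stayed higher in PBM in the T cells that could be read this way, with 1 exception. Pdcd1-positive CD8 T cells could not be read so. The Ifng-led cluster held 567 control and 8 PBM cells of this type, and the Dapl1-led cluster 1 and 27. Naive-gate CD8 T cells of the Ifng-led cluster, 145 and 8, were also too few. Naive-gate CD8 T cells of the Dapl1-led cluster alone, 26 control and 2649 PBM cells, had 1110.4 and 2399 CPM, a log2 ratio of 1.11. CD4 T cells of the Izumo1r-led cluster, 235 and 160 cells, had 2232 and 5732 CPM (1.36). That cluster may itself join unlike cells. At Leiden resolution 2.0 a cluster led by Cxcr6 and Cd4 held 406 control and 127 PBM cells. Another, led by Izumo1r and Foxp3, held 17 and 618. The part of such a mix in the ratios of the Izumo1r-led cluster was not tested. CD4 T cells of the Gm12840-led cluster, 22 and 794 cells, had 2888 and 2659 CPM (-0.12), the only ratio below 0. It rests on 262 control UMIs and has no interval here, so a difference from 0 beyond counting error is not shown. Foxp3-positive T cells of the Foxp3-led cluster, 395 and 44 cells, had 3374 and 8185 CPM (1.28), larger than the 0.68 over all Foxp3-positive T cells. The small ratio of all CD4 T cells joins clusters whose levels and ratios differ. Whole clusters, with all their cells, were higher in PBM as well. The Ifng-led cluster of 1185 control and 34 PBM cells had 999.8 and 3835 CPM (log2 1.94, 1.84 to 2.04), the Foxp3-led one 3115 and 7543 CPM (log2 1.28, 1.23 to 1.32) and the Izumo1r-led one 2088 and 4734 CPM (log2 1.18, 1.13 to 1.23). The naive-like T clusters had smaller ratios, 1323 and 2414 CPM (log2 0.87, 0.67 to 1.07) in the Dapl1-led and 2013 and 2605 CPM (log2 0.37, 0.24 to 0.51) in the Gm12840-led cluster. Outside the T cells, the Klra8-led NK-like cluster had 746 and 1309 CPM (log2 0.81, 0.72 to 0.90), the Iglc1-led B-like cluster 1109.9 and 2503 CPM (log2 1.17, 1.06 to 1.29), the Ebf1-led B-like cluster of 21 and 559 cells 684 and 2362 CPM (log2 1.79, 1.37 to 2.23), and the Ccl24-led and Ccl8-led macrophage-like clusters log2 ratios of 1.25 and 1.31. Within the Cd209a-led cluster the cells without a UMI of Siglech had 0.50 in place of 0.86.

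**Figure D2:**
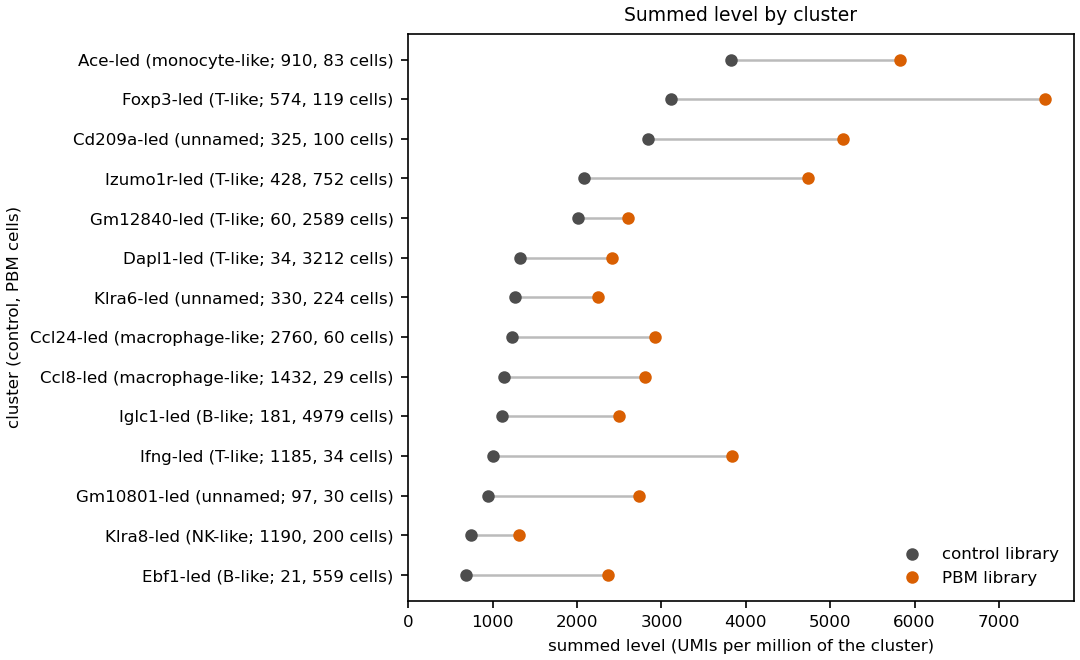
Summed level of the 32 genes (x axis, UMIs per 1000000 UMIs of the cluster) in each cluster with at least 20 cells in each library (y axis, with its class and its control and PBM cell numbers), control in dark grey and PBM in orange. PBM lies to the right in all 14 clusters, with the widest gaps in the Foxp3-led (3115 to 7543) and Ifng-led clusters (999.8 to 3835).

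A single gene made up the largest piece of the difference in each of the 9 cell types. Ifi27l2a encodes a small protein of the Ifi27 family and gave the most UMIs of the 32 genes in both libraries, except in control NK-like cells. Ifi27l2a stood at 336 CPM in control naive-gate CD8 T cells and 1015 in PBM ones, at 247 and 1529 in Pdcd1-positive CD8 T cells, 1134 and 1646 in CD4 T cells and 1560.3 and 3179 in Foxp3-positive T cells. NK-like cells held Ifi27l2a at 41.7 and 304 CPM, B-like cells at 464 and 1227, monocyte-like cells at 1665 and 2872, macrophage-like cells at 281 and 1025 and the Cd209a-led cluster at 735 and 1829. Its level was higher in PBM in 9 of 9 types, with intervals apart in 9, and its log2 ratio ran from 0.54 (0.46 to 0.61) in CD4 T cells to 2.87 (2.65 to 3.09) in NK-like cells. The NK-like level was the lowest of the 9 types in both libraries. RNA from outside the cells was put at 10.2% in control and 17.8% in PBM NK-like cells. Its part in their Ifi27l2a ratio is not given. Its share of the summed difference was 52.6% in naive-gate CD8 T cells, 54.6% in Pdcd1-positive CD8 T cells, 57.99% in CD4 T cells and 81.3% in Foxp3-positive T cells. Elsewhere it was 44.01% in NK-like, 52.9% in B-like, 60.1% in monocyte-like and 43.9% in macrophage-like cells and 47.4% in the Cd209a-led cluster. The other 31 genes, summed without it, were still higher in PBM in 9 of 9 types. Their log2 ratio was 0.82 in naive-gate CD8, 1.44 in Pdcd1-positive CD8, 0.40 in CD4 and 0.28 in Foxp3-positive T cells. It was 0.59 in NK-like, 1.11 in B-like, 0.46 in monocyte-like and 1.03 in macrophage-like cells and 0.66 in the Cd209a-led cluster. Pdcd1-positive CD8 T cells lost most on the log2 scale, from 1.89 to 1.44, and Foxp3-positive T cells went from 0.68 to 0.28, the lowest of the 9.

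The second place differed by cell type. Isg15 held it in naive-gate CD8 T cells (6.22%), Pdcd1-positive CD8 T cells (8.04%), CD4 T cells (7.499%), monocyte-like cells (10.1%) and macrophage-like cells (16.4%). Trim30a held it in B-like cells (5.27%) and NK-like cells (8.43%). In Foxp3-positive T cells the second largest piece by size was negative, -11.6% from Isg20, and the largest positive one after Ifi27l2a was Slfn5 at 3.704%. In the Cd209a-led cluster Bst2 made up 46.3%, close to Ifi27l2a, and no other gene passed 6.38% (Irf7). With the 3 genes of most UMIs left out of the sum, the log2 ratio of that cluster was 0.18.

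**Figure D3:**
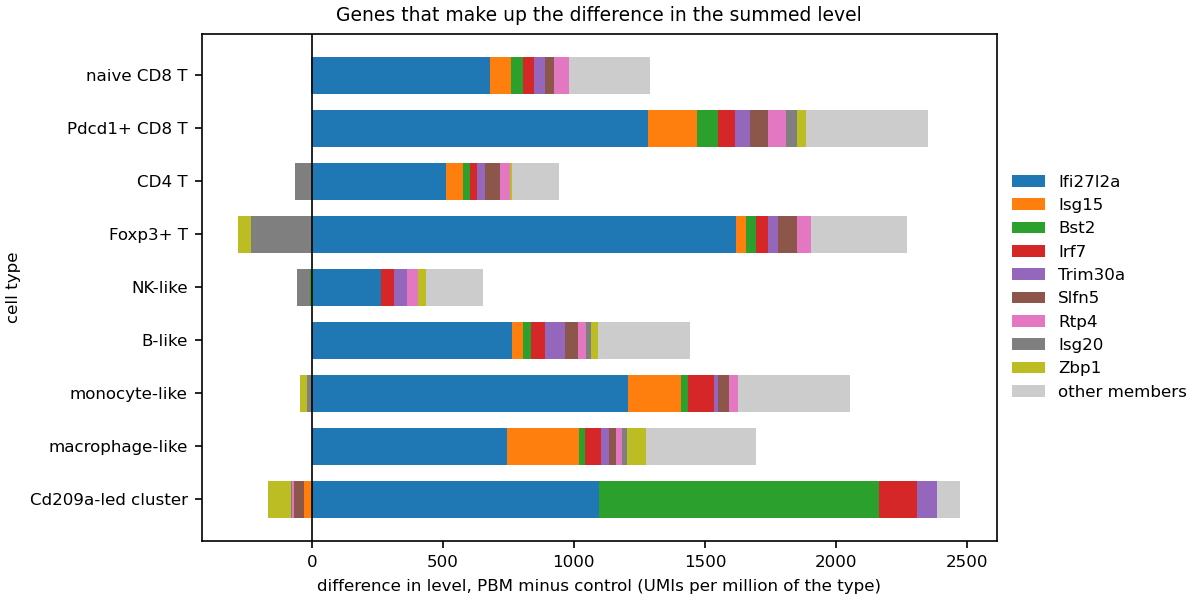
Difference in level between the libraries (x axis, PBM minus control, UMIs per 1000000 UMIs of the cell type) stacked by gene for each cell type (y axis), with 9 genes in colour and the other 23 in light grey; pieces left of 0 are lower in PBM. Ifi27l2a is the longest piece in every row, Bst2 is nearly as long in the Cd209a-led cluster (46.3%), and Isg20 reaches left of 0 in Foxp3-positive T cells (-11.6%).

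Among the antiviral effectors, 15 genes with 120 counted values, the median log2 ratio was 1.04, with 65 values at least 2-fold higher and 2 at least 2-fold lower. Of all genes, 5.21% to 14.5% were at least 2-fold higher in a type and 9.83% to 16.1% at least 2-fold lower. Isg15 encodes a ubiquitin-like protein that is attached to other proteins and is also secreted. Isg15 stood at 41.04 CPM in control naive-gate CD8 T cells and 121 in PBM ones, at 34.9 and 224 in Pdcd1-positive CD8 T cells, 77.8 and 144 in CD4 T cells and 161 and 198 in Foxp3-positive T cells. NK-like cells held Isg15 at 35.5 and 37.8 CPM, B-like cells at 12.9 and 54.99, monocyte-like cells at 256 and 458, macrophage-like cells at 93.6 and 371 and the Cd209a-led cluster at 209.9 and 181. Isg15 was higher in PBM in 8 of 9 types, with intervals apart in 6, and highest relative to control in Pdcd1-positive CD8 T cells, at log2 2.68 (2.30 to 3.05). The exception was the Cd209a-led cluster (-0.22, -0.55 to 0.10), and in NK-like cells the values were nearly equal (0.09, -0.43 to 0.58).

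The Ifit genes encode proteins that bind viral RNA and hold back its translation. Ifit1 stood at 20.1 CPM in control naive-gate CD8 T cells and 45.4 in PBM ones, at 11.6 and 40.2 in Pdcd1-positive CD8 T cells, 24.3 and 61.1 in CD4 T cells and 22.6 and 74.3 in Foxp3-positive T cells. NK-like cells held Ifit1 at 4.25 and 8.95 CPM, B-like cells at 1.62 and 14.9, monocyte-like cells at 23.4 and 18.2, macrophage-like cells at 12.4 and 80.6 and the Cd209a-led cluster at 22.3 and 15.4. Ifit1 was higher in 7 of 9 types, with intervals apart in 6, and lower in monocyte-like cells and the Cd209a-led cluster, where the ratios were -0.36 (-2.02 to 0.91) and -0.53 (-1.82 to 0.55). In NK-like cells its ratio of 1.07 became -0.21 once an estimate of RNA from outside the cells was subtracted. The B-like ratio of 3.21 (0.72 to 8.51) rests on 1 UMI in the 205 control cells. Ifit3 was at 25.3 CPM in control naive-gate CD8 T cells and 51.8 in PBM ones, at 10.3 and 65.4 in Pdcd1-positive CD8 T cells, 10.4 and 45.1 in CD4 T cells and 11.1 and 79.8 in Foxp3-positive T cells. NK-like cells held Ifit3 at 3.01 and 13.9 CPM, B-like cells at 4.85 and 39.1, monocyte-like cells at 20.6 and 39.99, macrophage-like cells at 8.76 and 25.8 and the Cd209a-led cluster at 11.1 and 21.2. Ifit3 was higher in 9 of 9 types with intervals apart in 7, from 0.93 (-0.23 to 1.98) in the Cd209a-led cluster to 3.01 (1.46 to 5.29) in B-like cells, the latter from 3 control UMIs. Ifit3b was at 0.873 CPM in control naive-gate CD8 T cells and 10.96 in PBM ones, at 3.24 and 20.1 in Pdcd1-positive CD8 T cells, 4.86 and 14.9 in CD4 T cells and 2.89 and 19.8 in Foxp3-positive T cells. NK-like cells held Ifit3b at 0.519 and 1.99 CPM, B-like cells at 0 (3 UMIs would be 4.85) and 9.29, monocyte-like cells at 3.77 and 10.9, macrophage-like cells at 1.89 and 3.22 and the Cd209a-led cluster at 2.47 and 3.85. Ifit3b was sparse and reached 20 UMIs in 6 types, higher in all 6, with 3.65 (1.16 to 8.96) in naive-gate CD8 T cells from 1 control UMI. In B-like cells it was at least 0.94 higher on the log2 scale, since no control UMI was seen. Ifit3 and Ifit3b share long stretches of sequence: of all 50-base stretches of the Ifit3 transcripts 51.2% recur in Ifit3b, so reads could be split between them and their separate levels are uncertain. Ifit2 had a median log2 ratio of 0.83 over 9 types, from -0.75 in monocyte-like to 3.15 in B-like cells.

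Rsad2 encodes viperin, an enzyme that makes a chain-terminating nucleotide. Rsad2 stood at 5.24 CPM in control naive-gate CD8 T cells and 9.06 in PBM ones, at 3.62 and 15.1 in Pdcd1-positive CD8 T cells, 6.94 and 6.63 in CD4 T cells and 6.74 and 10.3 in Foxp3-positive T cells. NK-like cells held Rsad2 at 2.697 and 1.99 CPM, B-like cells at 3.23 and 8.21, monocyte-like cells at 23.1 and 47.3, macrophage-like cells at 19.3 and 61.2 and the Cd209a-led cluster at 11.96 and 34.6. Rsad2 was higher in 7 of 9 types, with intervals apart in 2: macrophage-like cells at 1.66 (0.93 to 2.32) and the Cd209a-led cluster at 1.53 (0.60 to 2.43). In monocyte-like cells its ratio of 1.03 (0.07 to 1.88) became -1.35 with doublets kept and -1.01 at finer clustering. Cmpk2, which neighbours Rsad2 on chromosome 12 and encodes a nucleotide kinase, reached 20 UMIs in 4 types, with a median of 1.16 (1.66 at most, in B-like cells).

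The Oas genes encode enzymes and enzyme-like proteins that sense double-stranded RNA and, for the active ones, switch on RNA decay through RNase L. Oas2 was rare, at 2.62 CPM in control naive-gate CD8 T cells and 5.96 in PBM ones, at 0.572 and 10.1 in Pdcd1-positive CD8 T cells, 1.39 and 8.47 in CD4 T cells and 0.481 and 4.74 in Foxp3-positive T cells. NK-like cells held Oas2 at 0.311 and 0.994 CPM, B-like cells at 0 (3 UMIs would be 4.85) and 4.63, monocyte-like cells at 10.05 and 21.8, macrophage-like cells at 2.88 and 22.6 and the Cd209a-led cluster at 5.36 and 3.85. Oas2 was counted in 4 types and higher in all 4, up to 2.97 (1.63 to 4.05) in macrophage-like cells. Oas3 stood at 13.1 CPM in control naive-gate CD8 T cells and 28.4 in PBM ones, at 9.72 and 30.2 in Pdcd1-positive CD8 T cells, 17.4 and 16.6 in CD4 T cells and 12.99 and 27.7 in Foxp3-positive T cells. NK-like cells held Oas3 at 6.64 and 14.9 CPM, B-like cells at 1.62 and 14.6, monocyte-like cells at 63.6 and 127, macrophage-like cells at 11.8 and 41.9 and the Cd209a-led cluster at 19.8 and 26.9. Oas3 was higher in 8 of 9 types, with intervals apart in 6, and the exception, CD4 T cells, had -0.07 (-0.72 to 0.63). Oasl1 stood at 2.62 CPM in control naive-gate CD8 T cells and 16.5 in PBM ones, at 0.381 and 22.6 in Pdcd1-positive CD8 T cells, 3.47 and 16.7 in CD4 T cells and 3.37 and 20.5 in Foxp3-positive T cells. NK-like cells held Oasl1 at 4.25 and 8.95 CPM, B-like cells at 14.5 and 41.1, monocyte-like cells at 23.4 and 61.8, macrophage-like cells at 9.83 and 12.9 and the Cd209a-led cluster at 18.97 and 15.4. Oasl1, an enzymatically inactive relative that restrains Irf7 translation, was higher in 7 of 8 counted types, with 2.65 (1.10 to 4.94) in naive-gate CD8, 2.27 (1.00 to 3.93) in CD4 and 2.61 (1.37 to 4.06) in Foxp3-positive T cells. Oas1a and Oasl2 had median log2 ratios of 0.50 and 1.16. Oas1a ran from -0.80 in the Cd209a-led cluster to 1.39 in naive-gate CD8 T cells and is uncertain, since 56.9% of its 50-base stretches recur in Oas1g; Oasl2 was higher in 8 of 8.

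Bst2 encodes tetherin, which holds budding virus at the cell surface and is also a surface marker of plasmacytoid dendritic cells in mice. Bst2 stood at 81.2 CPM in control naive-gate CD8 T cells and 128 in PBM ones, at 52.8 and 133 in Pdcd1-positive CD8 T cells, 76.4 and 104 in CD4 T cells and 114 and 153 in Foxp3-positive T cells. NK-like cells held Bst2 at 63.7 and 56.7 CPM, B-like cells at 54.95 and 87.1, monocyte-like cells at 155 and 182, macrophage-like cells at 161 and 184 and the Cd209a-led cluster at 589.6 and 1658. Bst2 was higher in 8 of 9 types, yet at least 2-fold in only 2: Pdcd1-positive CD8 T cells at 1.34 (0.88 to 1.76) and the Cd209a-led cluster at 1.49 (1.37 to 1.61). In that cluster Siglech was also higher in PBM, as given above, and the part of Siglech-positive cells in the Bst2 value was not tested. Slfn5 belongs to the Schlafen family of restriction factors. Slfn5 stood at 30.6 CPM in control naive-gate CD8 T cells and 63.5 in PBM ones, at 10.7 and 77.97 in Pdcd1-positive CD8 T cells, 58.3 and 117 in CD4 T cells and 47.2 and 121 in Foxp3-positive T cells. NK-like cells held Slfn5 at 8.71 and 8.95 CPM, B-like cells at 27.5 and 79.97, monocyte-like cells at 194 and 236, macrophage-like cells at 35.5 and 61.2 and the Cd209a-led cluster at 148 and 109.6. Slfn5 was higher in 8 of 9 types with intervals apart in 5, most in Pdcd1-positive CD8 T cells (2.87, 2.19 to 3.53), and lower in the Cd209a-led cluster (-0.43, -0.86 to -0.02).

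Isg20, the gene of an exonuclease that degrades single-stranded RNA, stood apart from the other effectors. Isg20 was at 45.4 CPM in control naive-gate CD8 T cells and 42.2 in PBM ones, at 53.95 and 95.6 in Pdcd1-positive CD8 T cells, 128 and 65.7 in CD4 T cells and 373 and 142 in Foxp3-positive T cells. NK-like cells held Isg20 at 60.3 and 10.9 CPM, B-like cells at 29.1 and 51.3, monocyte-like cells at 48.7 and 29.1, macrophage-like cells at 12.3 and 32.2 and the Cd209a-led cluster at 41.2 and 34.6. Isg20 was lower in PBM in 6 of 9 types, with intervals apart in 3: NK-like cells at -2.46 (-3.47 to -1.61), Foxp3-positive T cells at -1.39 (-1.63 to -1.16) and CD4 T cells at -0.96 (-1.22 to -0.69). It was higher in Pdcd1-positive CD8 T cells at 0.82 (0.30 to 1.32), B-like cells at 0.82 (0.15 to 1.58) and macrophage-like cells at 1.39 (0.32 to 2.28). Gzmb, a gene of activated lymphocytes, was lower in PBM in all 9 types. It stood at 1103 and 463 CPM in NK-like, 1655 and 145 in Foxp3-positive T and 177 and 6.81 in CD4 T cells. Gzmb stood at 921 and 151 in Pdcd1-positive CD8 T, 38.8 and 3.65 in B-like and 30.2 and 3.22 in macrophage-like cells. The low control levels of the B-like and macrophage-like cells were close to those of monocyte-like cells (30.9) and the Cd209a-led cluster (33.8). RNA from outside the cells as a part of these low levels was not tested, so they do not show a cell state. The part of cell state in the Isg20 values was not tested.

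The transcription factors and the feedback regulator had a similar median log2 ratio of 1.06 over 36 values and 18 at least 2-fold higher. The share of all genes at least 2-fold higher was 5.21% to 14.5% by type. Irf7 is the factor that amplifies interferon production. Irf7 stood at 27.1 CPM in control naive-gate CD8 T cells and 67.6 in PBM ones, at 16.01 and 80.5 in Pdcd1-positive CD8 T cells, 33.3 and 60.00 in CD4 T cells and 29.8 and 75.9 in Foxp3-positive T cells. NK-like cells held Irf7 at 21.7 and 69.6 CPM, B-like cells at 17.8 and 69.1, monocyte-like cells at 135 and 233, macrophage-like cells at 37.4 and 96.7 and the Cd209a-led cluster at 85.4 and 233. Irf7 was higher in 9 of 9 types with intervals apart in all 9, from 0.78 (0.38 to 1.16) in monocyte-like to 2.33 (1.69 to 2.93) in Pdcd1-positive CD8 T cells. Usp18 encodes the protease that removes Isg15 from its targets and desensitises the receptor. Usp18 stood at 5.24 CPM in control naive-gate CD8 T cells and 25.98 in PBM ones, at 5.53 and 35.2 in Pdcd1-positive CD8 T cells, 7.64 and 24.7 in CD4 T cells and 5.77 and 36.4 in Foxp3-positive T cells. NK-like cells held Usp18 at 11.7 and 15.9 CPM, B-like cells at 1.62 and 16.4, monocyte-like cells at 21.1 and 50.9, macrophage-like cells at 6.72 and 19.3 and the Cd209a-led cluster at 20.2 and 17.3. Usp18 was higher in 8 of 9 types with intervals apart in 6, at 2.67 (1.64 to 3.64) in Pdcd1-positive CD8 T and 2.65 (1.71 to 3.71) in Foxp3-positive T cells. The B-like ratio of 3.34 (0.86 to 8.65) rests on 1 control UMI. The partners of the response factor differed from each other: Irf9 was higher in 8 of 9 types with a median of 0.95, and Stat2 in 5 of 9 with a median of 0.12, from -0.44 to 0.53.

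Of the remaining induced genes, Rtp4, which encodes a chaperone of receptors, had large ratios in CD8 T cells. Rtp4 was at 6.11 CPM in control naive-gate CD8 T cells and 64.7 in PBM ones, at 8.01 and 77.97 in Pdcd1-positive CD8 T cells, 24.99 and 64.2 in CD4 T cells and 35.6 and 87.7 in Foxp3-positive T cells. NK-like cells held Rtp4 at 9.75 and 50.7 CPM, B-like cells at 12.9 and 40.2, monocyte-like cells at 53.3 and 87.2, macrophage-like cells at 18.6 and 41.9 and the Cd209a-led cluster at 35.05 and 28.8. Rtp4 was higher in 8 of 9 types with intervals apart in 7, at 3.40 (2.36 to 4.72) in naive-gate CD8, 3.28 (2.57 to 3.99) in Pdcd1-positive CD8 T and 2.38 (1.86 to 2.89) in NK-like cells. In macrophage-like cells its 1.17 (0.26 to 1.96) became -0.27 at finer clustering. Ifi44 was hardly detected outside the Cd209a-led cluster. Ifi44 was at 0 (3 UMIs would be 2.62) CPM in control naive-gate CD8 T cells and 0.993 in PBM ones, at 0.381 and 2.52 in Pdcd1-positive CD8 T cells, 0 (3 UMIs would be 2.08) and 1.84 in CD4 T cells and 0 (3 UMIs would be 1.44) and 3.95 in Foxp3-positive T cells. NK-like cells held Ifi44 at 1.35 and 1.99 CPM, B-like cells at 0 (3 UMIs would be 4.85) and 1.01, monocyte-like cells at 1.26 and 0 (3 UMIs would be 10.9), macrophage-like cells at 0.861 and 6.45 and the Cd209a-led cluster at 2.06 and 32.7. It reached 20 UMIs in 2 types, with 3.99 (2.49 to 5.78) in the Cd209a-led cluster, from 5 and 17 UMIs, and 2.90 (-0.19 to 4.85) in macrophage-like cells, from 41 and 2. Xaf1, a proapoptotic gene, was higher in 8 of 9 types (median 0.94) and Ifi35 in 7 of 9 (median 0.18), with none at 2-fold for Ifi35.

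The nucleic acid sensors of the list had a median log2 ratio of 0.73 over 36 values, with 10 at least 2-fold higher and 1 at least 2-fold lower. By type, 5.21% to 14.5% of all genes were at least 2-fold higher and 9.83% to 16.1% at least 2-fold lower. Zbp1 senses Z-form nucleic acid and can start necroptosis. Zbp1 stood at 73.3 CPM in control naive-gate CD8 T cells and 74.8 in PBM ones, at 49.6 and 83.00 in Pdcd1-positive CD8 T cells, 72.9 and 78.2 in CD4 T cells and 161 and 112 in Foxp3-positive T cells. NK-like cells held Zbp1 at 48.6 and 81.5 CPM, B-like cells at 27.5 and 54.1, monocyte-like cells at 209 and 182, macrophage-like cells at 70.8 and 142 and the Cd209a-led cluster at 134 and 48.1. It divided the types: higher with intervals apart in macrophage-like (1.00, 0.54 to 1.43), B-like (0.98, 0.29 to 1.76), NK-like (0.75, 0.39 to 1.09) and Pdcd1-positive CD8 T cells (0.74, 0.17 to 1.27), and lower with intervals apart in the Cd209a-led cluster (-1.47, -2.12 to -0.89) and Foxp3-positive T cells (-0.52, -0.82 to -0.23). Ddx58 encodes RIG-I, a sensor of viral RNA ends. Ddx58 stood at 21.8 CPM in control naive-gate CD8 T cells and 37.1 in PBM ones, at 11.4 and 30.2 in Pdcd1-positive CD8 T cells, 21.5 and 42.5 in CD4 T cells and 26.5 and 32.4 in Foxp3-positive T cells. NK-like cells held Ddx58 at 27.1 and 37.8 CPM, B-like cells at 25.9 and 35.6, monocyte-like cells at 20.6 and 54.5, macrophage-like cells at 11.7 and 16.1 and the Cd209a-led cluster at 16.1 and 26.9. Ddx58 was higher in 9 of 9 types, with intervals apart in 4, from 0.29 (-0.33 to 0.90) in Foxp3-positive T to 1.40 (0.50 to 2.21) in monocyte-like cells. Its relatives Dhx58 and Ifih1, the genes of LGP2 and MDA5, were higher in 8 and 7 of 9 types, with medians of 1.04 and 0.62.

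Genes of ubiquitin and ADP-ribose transfer differed least, with a median log2 ratio of 0.49 over 36 values and 3 at least 2-fold higher. That share lies within the range of all genes, 5.21% to 14.5% by type. Trim30a encodes a RING-domain protein that restrains inflammatory signalling. Trim30a stood at 59.4 CPM in control naive-gate CD8 T cells and 103 in PBM ones, at 49.2 and 106 in Pdcd1-positive CD8 T cells, 72.9 and 101 in CD4 T cells and 105 and 141 in Foxp3-positive T cells. NK-like cells held Trim30a at 60.1 and 110.4 CPM, B-like cells at 46.9 and 123, monocyte-like cells at 108 and 124, macrophage-like cells at 45.5 and 77.4 and the Cd209a-led cluster at 114 and 190.4. Trim30a was higher in 9 of 9 types with intervals apart in 8, though modestly, from 0.20 (-0.35 to 0.70) in monocyte-like to 1.39 (0.87 to 1.97) in B-like cells. Parp14 encodes an ADP-ribosyltransferase. Parp14 stood at 58.5 CPM in control naive-gate CD8 T cells and 77.03 in PBM ones, at 60.1 and 90.5 in Pdcd1-positive CD8 T cells, 98.6 and 89.1 in CD4 T cells and 113 and 129.6 in Foxp3-positive T cells. NK-like cells held Parp14 at 56.3 and 63.6 CPM, B-like cells at 46.9 and 91.4, monocyte-like cells at 134 and 182, macrophage-like cells at 55.9 and 129 and the Cd209a-led cluster at 83.7 and 80.8. Parp14 was higher in 7 of 9 types with intervals apart in 2, macrophage-like cells at 1.21 (0.72 to 1.66) and B-like cells at 0.96 (0.44 to 1.54). Dtx3l encodes the ubiquitin ligase partner of Parp9. Dtx3l stood at 55.01 CPM in control naive-gate CD8 T cells and 77.8 in PBM ones, at 43.5 and 83.00 in Pdcd1-positive CD8 T cells, 79.1 and 75.5 in CD4 T cells and 108 and 98.8 in Foxp3-positive T cells. NK-like cells held Dtx3l at 40.04 and 63.6 CPM, B-like cells at 46.9 and 48.3, monocyte-like cells at 75.9 and 135, macrophage-like cells at 37.4 and 67.7 and the Cd209a-led cluster at 64.7 and 78.8. Dtx3l was higher in 7 of 9 types with intervals apart in 5, at most 0.93 (0.36 to 1.46) in Pdcd1-positive CD8 T cells. Parp9, which shares a promoter region with Dtx3l on the opposite strand, had a median of 0.12 and ran from -0.91 in monocyte-like to 0.99 in Pdcd1-positive CD8 T cells.

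**Figure D4:**
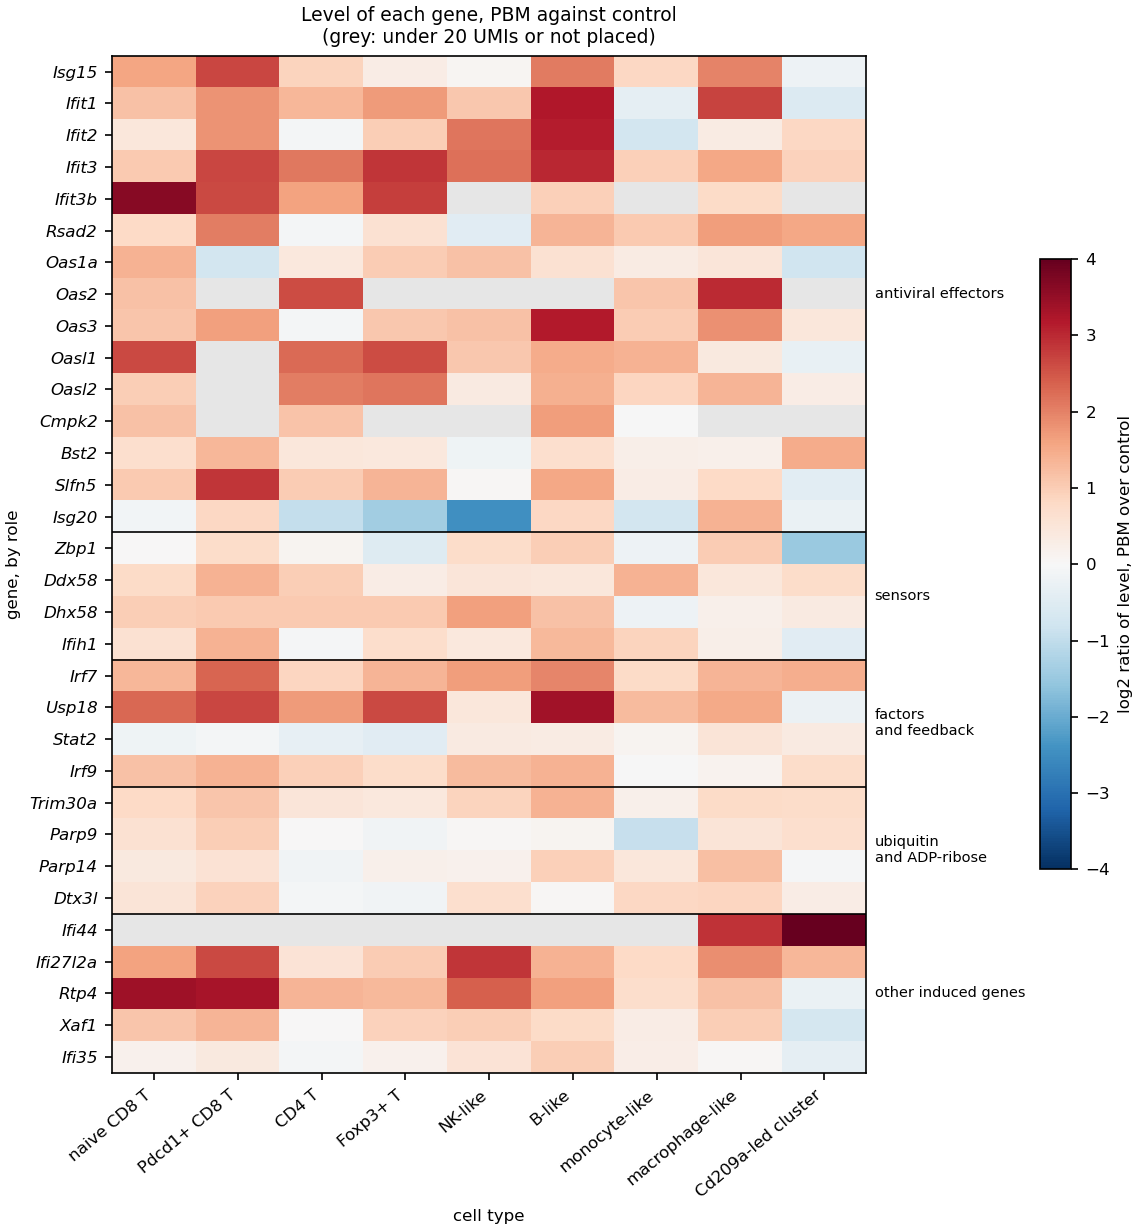
Log2 ratio of level, PBM over control (colour, red higher and blue lower in PBM), for the 32 genes (y axis, grouped by role) in 9 cell types (x axis); grey marks values under 20 UMIs. Red fills most of the map, with blue in Isg20 (-2.46 in NK-like cells) and in parts of the Cd209a-led column (Zbp1 -1.47).

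More cells of the PBM library carried these genes. Because a deeper cell shows more genes, each cell was thinned to 1000 UMIs before genes of the list were counted in it. A cell with UMIs of at least 3 different genes of the list was seen in 3.902% (control) and 24.3% (PBM) of B-like cells (intervals 1.700 to 7.54 and 23.2 to 25.4), and in 5.903% and 38.1% of Pdcd1-positive CD8 T cells (4.12 to 8.15 and 23.6 to 54.4). It was 11.5% and 26.3% in naive-gate CD8 T cells, 20.3% and 31.6% in CD4 T cells and 35.5% and 45.1% in Foxp3-positive T cells. It was 4.53% and 11.4% in NK-like, 36.04% and 48.2% in monocyte-like and 12.1% and 31.5% in macrophage-like cells and 28.9% and 33.00% in the Cd209a-led cluster. The share was higher in PBM in 9 of 9 types, with overlapping intervals in monocyte-like cells (32.9 to 39.3 and 37.1 to 59.4), Foxp3-positive T cells (30.9 to 40.4 and 38.7 to 51.6) and the Cd209a-led cluster (24.1 to 34.2 and 23.9 to 43.1).

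Cells with no gene of the list were fewer in PBM. After thinning they made up 52.2% and 31.2% of NK-like cells, 50.5% and 14.3% of Pdcd1-positive CD8 T cells, 45.9% and 18.3% of B-like cells and 13.96% and 3.61% of monocyte-like cells. At the other end, 5 or more genes were seen in 21.7% of PBM monocyte-like, 16.9% of PBM macrophage-like and 15.98% of PBM Foxp3-positive T cells, against 10.5%, 3.01% and 8.33% in control. RNA from outside the cells was not subtracted from any of these shares. Ifi27l2a alone was found in 21.98% and 53.9% of naive-gate CD8 T, 29.3% and 60.5% of B-like, 3.097% and 25.2% of NK-like and 22.2% and 53.9% of macrophage-like cells. Isg15 was found in 3.85% and 9.99%, 0.488% and 4.57%, 2.49% and 3.96% and 8.54% and 17.98% of the same types, and Irf7 in 3.85% and 6.92%, 0.976% and 6.65%, 2.95% and 9.901% and 3.67% and 16.9%. Without Ifi27l2a, at least 3 genes were seen in 8.79% and 16.2% of naive-gate CD8 T cells, 1.46% and 13.6% of B-like cells and 8.71% and 23.6% of macrophage-like cells. Of the UMIs of the other 31 genes left after thinning, the 10% of cells with most of them held 51.5% in control and 33.3% in PBM Pdcd1-positive CD8 T cells, 48.6% and 46.9% in macrophage-like and 41.3% and 41.7% in B-like cells. These shares depend on the number of UMIs, which was 388 and 72, 4397 and 192, and 109 and 7569. They therefore do not show whether a subset of cells carries the genes. With interferon genes kept for clustering, a B-like cluster led by Ifit3, Ifit3b and Ifit2 appeared. It took 211 PBM cells, from a library with 5610 B-like cells in that setting. From the control library, with only 206, it took 0. The genes that lead this cluster also helped to make it, and the libraries were not integrated. It therefore does not show a subset found in the PBM library alone.

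**Figure D5:**
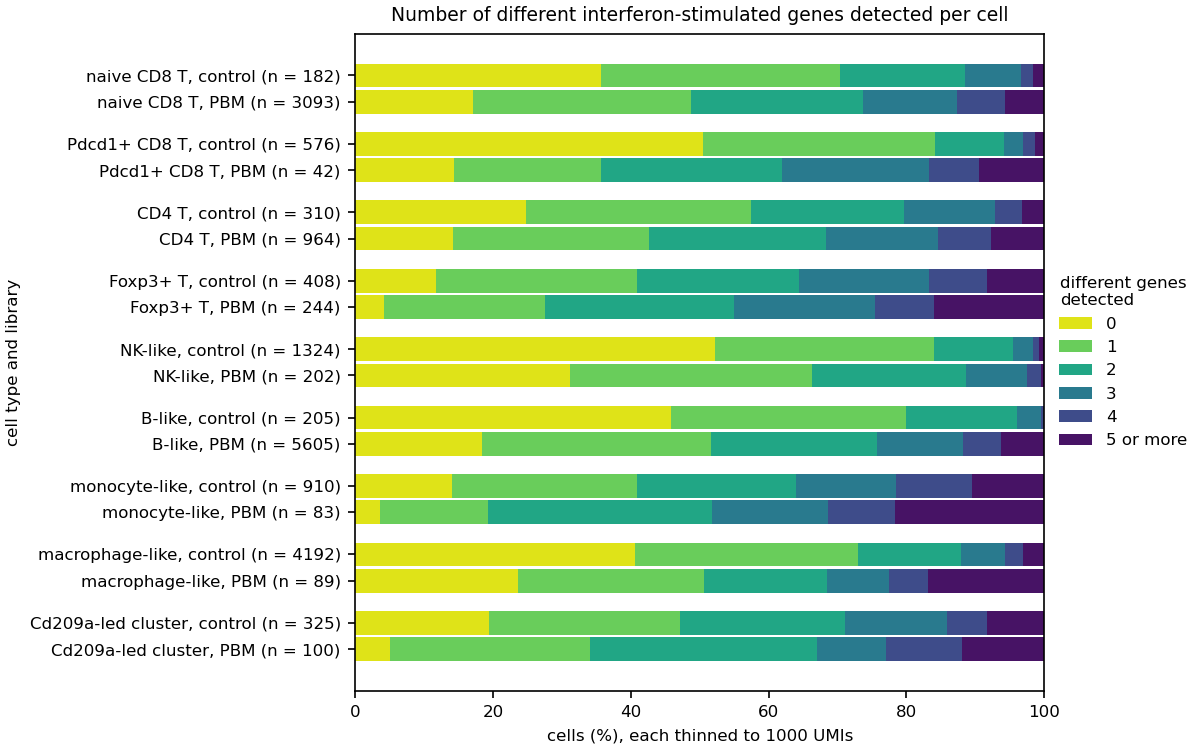
Share of cells (x axis, percent) by the number of different genes of the list detected after thinning each cell to 1000 UMIs (colour, from yellow for 0 to dark purple for 5 or more), for each cell type and library (y axis, with cell numbers). In each pair the yellow part is shorter in PBM, 35.7% against 17.04% in naive-gate CD8 T cells and 40.5% against 23.6% in macrophage-like cells.

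Depth moved the shares. Without thinning the share of cells with at least 3 genes was 67.03% and 92.6% in naive-gate CD8 T, 23.9% and 79.6% in B-like, 75.5% and 74.7% in monocyte-like and 73.8% and 68.5% in macrophage-like cells, so in the last pair of types the direction turned. Median UMIs per cell were 5343 and 6529, 2674 and 4450, 3404.5 and 2232 and 8568.5 and 2235 in these types, with the PBM myeloid cells the shallower. Every cell type can express these genes, so none could serve as a blank for free RNA. From markers of other classes the share of RNA that came from outside the cell was put at 9.37% to 25.5% in the control types and 15.03% to 24.2% in the PBM types. With that share of the library's mean profile subtracted, the summed log2 ratio was 1.07 in naive-gate CD8, 2.01 in Pdcd1-positive CD8, 0.43 in CD4 and 0.69 in Foxp3-positive T cells. It was 0.64 in NK-like, 1.27 in B-like, 0.65 in monocyte-like and 1.30 in macrophage-like cells and 0.81 in the Cd209a-led cluster. All 9 stayed above 0, and NK-like cells, with 0.89 before, lost most.

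Other genes of the pathway were read as fixed lists. Of 21 interferon genes, 18 were not analysed here; Ifnk had 1 UMI in each library and Ifnz 7 in control and 2 in PBM, too few to place. Ifng, the type II interferon gene, had 7165 UMIs in the control library and 531 in PBM. Ifng stood at 737 and 709 CPM in Pdcd1-positive CD8 T cells, at 105 and 1.29 in naive-gate CD8 T cells, at 434 and 1.84 in CD4 T cells and at 58.9 and 91.5 in NK-like cells. It was far lower in PBM in naive-gate CD8 and CD4 T cells, where the type I genes were higher.

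Receptor and signalling genes, 15 in number, had median log2 ratios between -0.50 and 0.39 over the 9 types. Of their 134 values 55 were higher, 5 of them at least 2-fold, with 23 at least 2-fold lower. Of all genes 37.6% to 55.7% were higher in a type, 5.21% to 14.5% at least 2-fold higher and 9.83% to 16.1% at least 2-fold lower. The share of these values that was higher lies within the range of all genes. The share at least 2-fold higher lies below its range, and the share at least 2-fold lower above its range. In macrophage-like cells 14 of the 15 were higher, 3 at least 2-fold, where 50.98% of all genes were higher. Jak1, a kinase of the receptor, stood at 390.3 and 418 CPM in naive-gate CD8 T, 459.7 and 872 in NK-like and 108 and 142 in macrophage-like cells. Ptpn6, a phosphatase that restrains the receptor, stood at 564 and 783 CPM in B-like and 448 and 272 in Pdcd1-positive CD8 T cells. Irf8, a factor of B and dendritic cells, stood at 105 and 27.5 CPM in naive-gate CD8 T cells and 729 and 1559.6 in the Cd209a-led cluster. Nucleic acid sensing genes outside the list, 17 in both libraries, had medians of -0.16 to 0.24, with 76 of 132 values higher, 8 at least 2-fold higher and 9 at least 2-fold lower. Samhd1, an enzyme that depletes nucleotides, stood at 764 and 836 CPM in monocyte-like, 212 and 342 in macrophage-like cells and 393 and 179 in the Cd209a-led cluster. Tmem173, the gene of STING, stood at 53.3 and 52.3 CPM in naive-gate CD8 T and 51.7 and 59.9 in B-like cells, and Unc93b1, which carries Toll-like receptors to endosomes, at 34.9 and 27.5 and 286 and 263.

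A further 60 interferon-stimulated genes outside the list were also mostly higher in PBM. Their median log2 ratio lay between 0.12 in the Cd209a-led cluster and 0.98 in macrophage-like cells, and 365 of 486 values were higher, 116 at least 2-fold, with 27 at least 2-fold lower. Their median lay below that of the 32 genes in 6 types and above it in NK-like, monocyte-like and macrophage-like cells. Shisa5, a gene that acts in cell death, stood at 1004 and 1592 CPM in naive-gate CD8 T (log2 0.67), 1371 and 1588 in B-like (0.21) and 291 and 741 in macrophage-like cells (1.35). Sp100, of nuclear bodies, stood at 147 and 322 CPM in NK-like (1.13) and 249 and 280 in naive-gate CD8 T cells (0.17). Ly6e, a surface protein gene, was close to equal in CD4 T cells, at 989 and 894 CPM (-0.15), and higher in macrophage-like cells, at 671 and 1086 (0.69). Genes mainly led by interferon gamma, 24 in number, had medians from -0.79 in Foxp3-positive T cells to 0.77 in macrophage-like cells, with 83 of 209 values higher, 22 at least 2-fold higher and 50 at least 2-fold lower. The share that was higher lies within the range of all genes given above, and so does the share at least 2-fold higher, while the share at least 2-fold lower lies above it. The immunoproteasome genes Psmb8 and Psmb9 stood at 912 and 644 and at 469 and 267 CPM in Foxp3-positive T cells, and at 440.2 and 635 and 167 and 229 in macrophage-like cells. Cd74, the invariant chain gene, stood at 13075 and 13684 CPM in B-like cells, at 356 and 896 in naive-gate CD8 T and 311 and 948 in NK-like cells, where B cell RNA was also higher: Cd79a stood there at 2.62 and 166 and 3.22 and 189 CPM. In Foxp3-positive and CD4 T cells the medians of these genes were -0.79 and -0.52 beside 0.94 and 0.54 for the 32 genes, while in macrophage-like cells both medians were above 0, 0.77 and 0.97.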

How the data were processed

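Single-cell RNA was measured in 1 control and 1 PBM library. The values the authors deposited are unnormalized UMI counts. Per the submitters' processing notes, Cell Ranger 7.2.0 was used with mm10, while the matrix headers name PISA 0.12, so which program made the counts is not settled. Groups came from the labels, and members and lists were chosen with earlier results of these data known.

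From the deposited counts, barcodes were kept from 500 UMIs and 200 genes upward, unless over 10% of their UMIs were mitochondrial (11227 of 11238 and 13961 of 13962). Scrublet in scanpy 1.11.5 called 128 and 899 doublets (1.14% and 6.44%), which were removed. Median UMIs per barcode were 5621.5 and 5143.5. Genes in both lists, without the interferon lists, were clustered (2000 variable genes, 30 principal components, 15 neighbours, Leiden resolution 1 with igraph 0.11.9, no integration). A cluster was named from markers at 1.5 times the mean of clusters and in 10% of its cells, and left unnamed with under 3 such markers or with more markers of another class among its 10 leading genes; monocytes, macrophages and dendritic cells were not clustered again.

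UMIs were summed per type and library and given per 1000000 (CPM); a 3′ UMI counts molecules and is not scaled to gene length. Intervals at 95% are exact: Poisson for levels, conditional binomial for ratios, Clopper-Pearson for shares. They cover counting error only. A gene was counted at 20 or more UMIs over both libraries, called at 2-fold, and a sum of 0 was set to 3 counts. Nothing was tested. Alternatives changed the scaling (TMM from edgeR 4.0.16), depth, doublets, clustering, gates, UMI minimum, free RNA and the genes summed. Scripts were tested on simulated data. Python 3.11.15, numpy 2.4.6, scipy 1.17.1 and pandas 2.3.3 were used.

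Genes given in every cell type are those among the 5 largest contributions to the summed difference in any type, plus the 3 largest ratios in each direction per type among genes with 20 UMIs and intervals apart, 21 in all; from each other list the 3 with most UMIs in B-like or T-like cells are named. Coordinates are those of GRCm38.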

Additional observations from a re-analysis of the deposited data

Results flagged for a closer look

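Zbp1 and Isg20 were at least 2-fold higher in one cell type and at least 2-fold lower in another. Zbp1 stood at 70.8 and 142 CPM in control and PBM macrophage-like cells, a log2 ratio of 1.00, and at 134 and 48.1 CPM in the Cd209a-led cluster, a ratio of -1.47. The first lies at the cut and falls below it with the other scalings, which shift that type by -0.048 and -0.023. Siglech in the Cd209a-led cluster stood at 174 and 888 CPM, and its cell mix as a part of the Zbp1 value was not tested. Isg20 stood at 12.3 and 32.2 CPM in macrophage-like cells (1.39, from 10 PBM UMIs) and at 60.3 and 10.9 CPM in NK-like cells (-2.46, from 11 PBM UMIs). With 1 library a group these differences between cell types were not tested.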

How the results depend on the processing

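The summed level stayed higher in PBM in all 9 cell types under the alternatives run, except in CD4 T cells within a single cluster. Over them its log2 ratio ran from 0.78 to 1.35 in naive-gate CD8 T cells, 1.44 to 2.06 in Pdcd1-positive CD8 T cells and -0.12 to 1.36 in CD4 T cells. Scaling moves every gene of a type by the same amount, -0.11 to 0.20 with TMM and -0.04 to 0.27 with the other totals. Values that moved by more than their counting interval follow, and their causes were not tested. Numbers of genes at least 2-fold apart under an alternative are given without the share of all genes, so they have no background beside them. With edgeR's TMM factors, the summed log2 ratio was 1.30 in naive-gate CD8 T, 1.99 in Pdcd1-positive CD8 T, 0.63 in CD4 T, 0.85 in Foxp3-positive T, 0.77 in NK-like, 1.43 in B-like, 0.69 in monocyte-like and 0.78 in the Cd209a-led cluster. With totals free of ribosomal protein and mitochondrial genes, the summed log2 ratio was 1.32 in naive-gate CD8 T, 2.06 in Pdcd1-positive CD8 T, 0.74 in CD4 T, 0.92 in Foxp3-positive T, 1.36 in B-like and 0.69 in monocyte-like. With cells thinned to 1000 UMIs, the summed log2 ratio was 0.91 in naive-gate CD8 T, 0.57 in Foxp3-positive T, 0.71 in NK-like, 1.38 in B-like, 0.77 in monocyte-like and 0.76 in the Cd209a-led cluster. There, genes at least 2-fold higher numbered 9 in naive-gate CD8 T, 7 in Pdcd1-positive CD8 T, 7 in CD4 T, 5 in Foxp3-positive T, 4 in NK-like and 2 in the Cd209a-led cluster. There, genes at least 2-fold lower numbered 1 in CD4 T, 1 in monocyte-like and 3 in the Cd209a-led cluster. With doublets kept, the summed log2 ratio was 1.26 in naive-gate CD8 T and 1.39 in macrophage-like. There, genes at least 2-fold lower numbered 2 in NK-like, 2 in monocyte-like and 1 in macrophage-like. At Leiden resolution 2.0, the summed log2 ratio was 1.35 in naive-gate CD8 T, 1.66 in Pdcd1-positive CD8 T, 0.81 in monocyte-like and 1.13 in macrophage-like. There, genes at least 2-fold lower numbered 2 in monocyte-like and 2 in macrophage-like. With gates at 2 UMIs, the summed log2 ratio was 1.32 in naive-gate CD8 T, 0.58 in CD4 T and 0.79 in Foxp3-positive T. Without the 3 genes of most UMIs, the summed log2 ratio was 0.78 in naive-gate CD8 T, 1.53 in Pdcd1-positive CD8 T, 0.31 in CD4 T, 0.56 in Foxp3-positive T, 0.62 in NK-like, 1.09 in B-like, 0.45 in monocyte-like, 0.99 in macrophage-like and 0.18 in the Cd209a-led cluster. Without Ifi27l2a, the summed log2 ratio was 0.82 in naive-gate CD8 T, 1.44 in Pdcd1-positive CD8 T, 0.40 in CD4 T, 0.28 in Foxp3-positive T, 0.59 in NK-like, 1.11 in B-like, 0.46 in monocyte-like, 1.03 in macrophage-like and 0.66 in the Cd209a-led cluster. With no thinning, the PBM minus control share of cells with 3 or more genes was 25.5 points in naive-gate CD8 T, 20.9 points in CD4 T, 55.6 points in B-like, -0.796 points in monocyte-like and -5.29 points in macrophage-like. Thinned to 2000 UMIs, the PBM minus control share of cells with 3 or more genes was 29.4 points in naive-gate CD8 T, 18.1 points in CD4 T, 19.8 points in NK-like, 34.1 points in B-like and 22.6 points in the Cd209a-led cluster. With free RNA subtracted, the summed log2 ratio was 2.01 in Pdcd1-positive CD8 T and 0.64 in NK-like. There, genes at least 2-fold lower numbered 1 in CD4 T, 4 in monocyte-like, 1 in macrophage-like and 4 in the Cd209a-led cluster. Within the cluster of most PBM cells, the summed log2 ratio was -0.12 in CD4 T. Within the cluster of most control cells, the summed log2 ratio was 1.36 in CD4 T and 1.28 in Foxp3-positive T. With interferon genes kept for clustering, the summed log2 ratio was 1.17 in macrophage-like. There, genes at least 2-fold lower numbered 1 in macrophage-like and 2 in the Cd209a-led cluster. At a minimum of 50 UMIs, genes at least 2-fold higher numbered 3 in the Cd209a-led cluster. Without Siglech-positive cells, the summed log2 ratio was 0.50 in the Cd209a-led cluster. Of 1319 values of named genes under alternatives 113 moved, and of those at least 2-fold apart 4 changed sign: Ifit1 in NK-like had -0.21 (free RNA subtracted); Rsad2 in monocyte-like had -1.35 (doublets kept); Rsad2 in monocyte-like had -1.01 (resolution 2.0); Rtp4 in macrophage-like had -0.27 (resolution 2.0). The alternatives within single clusters, without Ifi27l2a and without Siglech-positive cells were chosen after seeing the data. Some alternatives left under 20 or 30 cells in a library and gave no value: Pdcd1-positive CD8 T cells with doublets kept, with gates at 2 UMIs and within single clusters, naive-gate CD8 T cells within the control cluster, and Foxp3-positive T cells at resolution 0.5 and within the PBM cluster. The Cd209a-led cluster gave no value at resolutions 0.5 and 2.0 for another reason. At 0.5 no cluster was led by Cd209a. At 2.0 a Cd209a-led cluster of 289 control and 73 PBM cells was named dendritic. A Siglech-led cluster of 41 and 31 cells, named plasmacytoid dendritic, was separate there. No paired analysis was possible because each group holds 1 library, and for the same reason no replicate could be left out. Few cells limit the precision in PBM Pdcd1-positive CD8 T, monocyte-like and macrophage-like cells, with 42 to 89 cells a type, and the PBM cells of the latter pair are also shallow.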

Other observations

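The 32 genes were also read in 2 clusters that belong to none of the cell types. A cluster led by Klra6, Tcrg-C2 and Cd160, with T cell markers beside NK receptor genes, held 330 control and 224 PBM cells and had a summed level of 1262 and 2252 CPM, a log2 ratio of 0.84 (0.76 to 0.91). In it 20 of 29 genes were higher, 4 at least 2-fold higher and 1 at least 2-fold lower. A cluster led by Gm10801 and Gm10800, predicted genes, held 97 and 30 cells and had 942 and 2731 CPM, a log2 ratio of 1.54 (1.29 to 1.78), with 8 genes counted and 6 of them higher. The share of all genes is not given for these 2 clusters, so the numbers of genes have no background beside them.

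Dendritic-like cells, of which the PBM library holds 4, had Isg15 in 34.2% and Bst2 in 38.1% of the 155 control cells before thinning, and Irf7 in 3.23%, below the 33.8% of control cells of the Cd209a-led cluster.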
